A study of Mus musculus with 70 samples.

Results

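The genes described here encode the proteins of the cytosolic ribosome. They were taken by name from a table of transcript counts in mouse hindlimb muscle: symbols of the form Rpl or Rps with a number and at most a closing a or x, together with Rplp0, Rplp1, Rplp2 and Rpsa. Of 55011 gene symbols 76 matched, and all 76 had at least 10 counts in 2 or more libraries, so the rule left none out. Symbols of annotated pseudogenes were not taken. The set holds 30 genes of the small subunit, which reads the message, and 46 of the large subunit, which joins amino acids, and 3 of those 46 (Rplp0, Rplp1 and Rplp2) form the stalk that receives elongation factors. Rps3a1, Fau and Rack1 also encode ribosomal proteins but are named differently, and they are described separately with the related copies of ribosomal protein genes.

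A ribosome holds a single copy of most of its proteins, and cells keep the supply of these proteins and of ribosomal RNA in balance. Most of the messages start with a short run of pyrimidines, the 5′ terminal oligopyrimidine (TOP) tract, through which growth signals acting on the mTOR pathway and the RNA-binding protein Larp1 set how much of each message is translated and stored. The steady RNA level measured here is therefore only a part of ribosome supply. Ribosomal RNA processing, snoRNAs and assembly factors are supplied by a different set of genes, many of them targets of the transcription factor Myc.

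The study followed muscle mesenchymal stromal cells (MmSCs, the fibroblast-like cells between muscle fibres) and their neighbours through cytokine injection, injury and dystrophy, in 70 libraries that fall into 28 groups and 6 experiments. Sorted cells went through 2 rounds of sorting and 1000 cells made a library, and whole muscle entered with 2 ng of RNA, per the labels' protocols. In C57BL/6J mice without injury, MmSCs were taken after an intraperitoneal injection of PBS (2 libraries, with no time given) or of a mix of 4 cytokines (Il-1b, Il-17A, TNFa and oncostatin M, written Osm), at 2 h (2 libraries), 4 h (1 library) and 8 h (2 libraries). Each of these cytokines alone, and Osm paired with each of the other 3, was sampled in 2 libraries at 2 h. CD31+ cells (mostly endothelium), CD45+ cells (leukocytes), MmSCs and satellite cells (MuSCs, the muscle stem cells) came from resting C57BL/6J muscle and from muscle 1 day after cardiotoxin, a venom toxin that kills fibres (3 libraries each). Il6RD mice, which mark Il6-expressing cells with Thy1.1, were sampled at 12 h after cardiotoxin, and their MmSCs were divided by that mark (3 libraries with it and 3 without). Whole tibialis anterior of C57BL/6J mice was taken 7 days after cardiotoxin with anti-Cxcl5 or IgG (3 libraries each). DMDmdx mice have no dystrophin, and their MmSCs were sampled at 2.5 weeks (3 libraries), 7 weeks (3 libraries) and 12.5 weeks of age (2 libraries, named 12 weeks in their titles), with no wild-type group beside them. Il1b-KO (3 libraries) and Il1b-WT littermates (2 libraries) gave MmSCs 1 day after cardiotoxin. The other ages are not in the labels, and neither is the animal behind each library, so each p-value below rests on the spread among libraries, and that spread may be technical.

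The sequence around the transcription start was searched for the pyrimidine run for which this gene family is known. In RefSeq promoter windows on GRCm38.p6, 56 of the 76 genes matched by symbol, with 66 windows of 300 bases among them. A run of 7 or more C or T overlapping the 5 bases on either side of the start was present in 26 of the 66 windows (39.4%), against 13.5% of all 32851 windows. By this rule a run also counts where it ends before the start, outside the message, as in the first window of Rpl10a. The following 30-base stretches, 15 before the start and 15 from it, are given 5′ to 3′ on the coding strand with that run in capitals. They were picked as examples of windows with and without the run, and no relation between the run and the RNA levels was tested. Rps6, Rpl28, Rpl15, Rplp2 and the first window of Rpl10a carry it, and the second window of Rpl10a, Rps2 and the window shown of Rpl22 do not:
Rps6 (chr4:86857353-86857382, minus strand): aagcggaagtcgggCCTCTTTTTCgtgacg
Rpl28 (chr7:4792950-4792979, plus strand): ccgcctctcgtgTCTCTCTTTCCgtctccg
Rpl15 (chr14:18270972-18271001, minus strand): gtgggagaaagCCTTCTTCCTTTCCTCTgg
Rplp2 (chr7:141447636-141447665, plus strand): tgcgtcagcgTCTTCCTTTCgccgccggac
Rpl10a (chr17:28328456-28328485, plus strand, the first of its 2 windows): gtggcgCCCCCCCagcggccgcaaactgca
Rpl10a (chr17:28328550-28328579, plus strand, the second): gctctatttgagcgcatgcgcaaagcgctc
Rps2 (chr17:24720048-24720077, plus strand): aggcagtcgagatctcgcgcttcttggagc
Rpl22 (chr4:152325711-152325740, plus strand, one of its 2 windows): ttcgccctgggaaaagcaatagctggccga

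Further short motifs were counted on both strands of the same 300-base windows. CCGGAAG, the core bound by ETS factors, was in 36.4% of the windows of ribosomal protein genes and in 8.86% of all windows. AAGATGGC, a core of YY1 sites, was in 10.6% against 2.75%, and CACGTG, the E-box read by Myc and other factors, in 12.1% against 7.15%. The TATA box core TATAAA was in 9.09% of these windows and in 13.6% of all windows. These are matches of letters, not sites of binding, and CCGGAAG and AAGATGGC can share the letters AAG.

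Library totals ran from 2252373 to 8408842 counts. The cell type markers fitted the labels of all sorted populations: summed over 8 genes, MmSC markers were at 17133 CPM or more in every MmSC library, with leukocyte markers at 7.97 CPM or less. CD31+ libraries also held MmSC markers at 3410 to 4580 CPM against 9594 to 13120 CPM of endothelial markers, so they were not free of stromal RNA. Resting MuSC libraries held pericyte and smooth muscle markers at 1451 to 2577 CPM, against 9035 to 10155 CPM of MuSC markers. Levels are CPM, counts scaled to a common library size and here to a size corrected by TMM, edgeR's scaling for composition, within each experiment. The replicate 2 library of the anti-Cxcl5 group stood apart from its group in these genes, and its values are given with that comparison.

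The family took up a varying share of all counts (Rps, Rpl and stalk genes summed). It was lowest in whole muscle, at 1.11, 1.1 and 1.12% in the IgG libraries, and highest in MuSCs, at 6.69, 6.76 and 7.75% at rest. Resting MmSCs gave 2.33, 2.33 and 2.28%, resting CD31+ cells 1.98, 2.05 and 1.79% and resting CD45+ cells 3.39, 3.85 and 4.04%. One day after cardiotoxin the share in MmSCs was 5.32, 5.06 and 5.43%, above each resting library, whereas in CD45+ cells it was 2.56, 2.66 and 3.00%, below each resting library. The Il1b-WT libraries of another experiment, also MmSCs 1 day after cardiotoxin, were at 2.75 and 2.69%. That experiment has no resting group, so whether the share rose there cannot be told. Uninjured MmSCs also differed between experiments, at 1.51 and 1.42% with PBS. Counts of the annotated pseudogenes, relative to the family's, were 0.997 and 1.02% in Il1b-WT. In the injured MmSCs above they were 0.342, 0.378 and 0.351%. The cause of these differences was not tested. In a share, more of these transcripts and fewer of the others cannot be told apart. In whole muscle, fewer cells of a type and less RNA per cell cannot be told apart either.

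**Figure D1:**
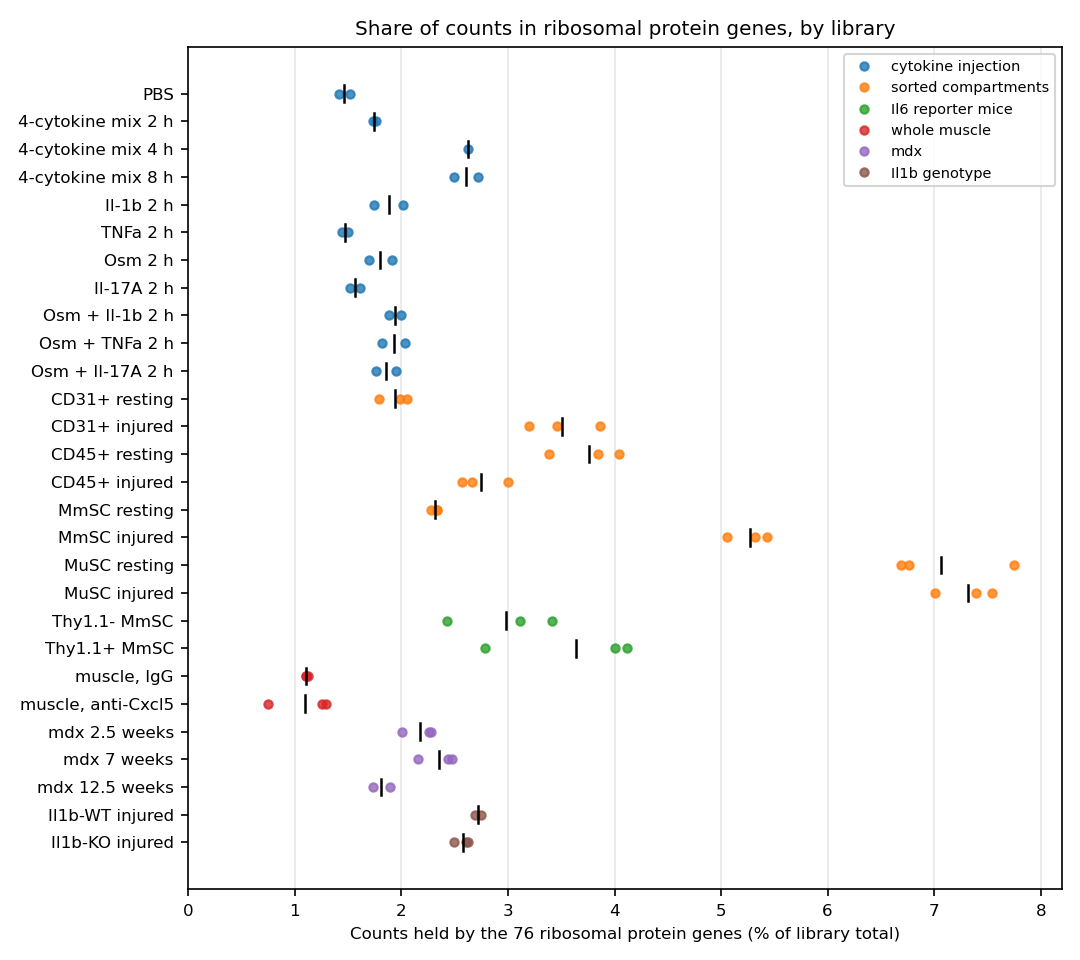
Share of each library's counts held by the 76 ribosomal protein genes (x axis, percent of the total count), with 1 point per library, a black bar for the group mean and colours for the 6 experiments. MuSC libraries sit highest, MmSC libraries of the sorted compartments rise from rest to injury, and 1 anti-Cxcl5 library lies at 0.745%, below all others.

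Compared per kilobase of their main annotated transcript, the messages of one ribosome were far from equal. In PBS MmSCs the median was 160 CPM per kilobase, with Rplp1 at 690.4 and Rpl8 at 542.1 among the highest and Rpl24 at 8.17 at the bottom. Rplp1 was also among the 3 highest in resting CD45+ cells (1853) and MmSCs (1565), and Rpl24 was the lowest in all 7 groups for which this was computed. Ribosomal protein genes have many processed copies in the genome, and the part that shared reads have in this order was not tested. Of the 50-base stretches of these transcripts a median of 56% also occur in transcripts of other annotated genes, with 98.6% for Rps27 and 81.7% for Rpl24. Rps2 shares 71.3% of its stretches with 71 other genes. The treatment of reads with several matches is not given here, and the level of a gene with many shared stretches is uncertain. The 44 genes with more than 50% shared and the 32 with 50% or less had median levels of 253 and 322 CPM in resting MmSCs.

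The first comparison asked what the 4 cytokines together do to MmSCs within 2 h. Ribosomal protein transcripts rose nearly as a block: 73 of 76 were called higher (edgeR's quasi-likelihood test, Benjamini-Hochberg adjusted p under 0.05 over all genes tested) and 0 lower, where 20.5% of all 15965 genes were called higher and 18% lower. The median log2 change was 0.76 over the 76 genes and -0.063 over all genes. The share of counts went from 1.51 and 1.42% with PBS to 1.73 and 1.76%. The members with at most 50% of shared stretches gave 30 higher of 32 (median 0.71) and the others 43 of 44 (median 0.89). With libraries scaled to their totals alone the median of all genes at 2 h moves to -0.58 and the count falls to 27 higher and 1 lower. The family's distance from that median was 0.82 with either scaling. A change of scaling moves all genes nearly alike, so this distance was fixed in advance and is no support. Summed over 8 genes, endothelial markers were at 258 to 316 CPM with PBS (Emcn and Cldn5 at 0), 105 to 125 CPM at 2 h (none at 0), 59.2 CPM in the 4 h library (Pecam1, Emcn and Cldn5 at 0) and 69.6 to 72.2 CPM at 8 h (Cdh5 and Cldn5 at 0). MmSC markers were at 70430 to 75778 CPM with PBS and 49304 to 58127 CPM at 2 h, with none of the 8 at 0. The part of either list in the result was not tested.

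In the small subunit 28 of 30 genes rose at 2 h, with a median of 0.76. Rps6, the subunit's target of S6 kinase, was at 99.4 and 105 CPM with PBS and 223 and 218 CPM with the mix, and its log2 change was 1.11 ± 0.14, adjusted p = 1.63e-06. Rps10 was at 18.1 and 15.4 CPM and then 40.9 and 41.2 CPM (1.29 ± 0.19, adjusted p = 1.43e-05). Rpsa, also known as the laminin receptor, was at 266 and 241 CPM with PBS and 432 and 437 CPM with the mix (0.78 ± 0.13). For each of these the mix libraries lay above both PBS libraries. Among the smallest called changes of this subunit were those of the X-linked Rps4x (0.52 ± 0.11) and of Rps28 (0.55 ± 0.14). Rps21 (0.35 ± 0.15, adjusted p = 0.0652) and Rps2 (0.33 ± 0.32, adjusted p = 0.447) did not pass, and the Rps2 libraries overlapped, at 268 and 244 CPM with PBS and 187 and 455 CPM with the mix. Without mix replicate 1 Rps2 was called (0.83, adjusted p = 0.0386 by edgeR) and without replicate 2 its change was -0.45. With totals alone Rps21 and Rps2 turn below 0 (-0.16 and -0.19).

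In the large subunit outside the stalk 42 of 43 genes rose, with a median of 0.80. Rpl10a (chr17:28328471-28331033, plus strand), whose product belongs to the mobile L1 stalk of the ribosome, showed the largest change of the family: 74.5 and 72.8 CPM with PBS and 274 and 260.4 CPM with the mix, a log2 change of 1.86 ± 0.14, adjusted p = 7.87e-10. Rpl3, a core protein near the site of peptide bond formation, was at 291 and 261 CPM with PBS and 677 and 719 CPM with the mix (1.34 ± 0.13, adjusted p = 3.09e-08). Rpl24 (1.24 ± 0.29) and Rpl18 (1.16 ± 0.15) followed. Rpl5 and Rpl11, which assemble with 5S ribosomal RNA and can bind the p53 regulator Mdm2, had changes of 1.15 ± 0.14 and 0.89 ± 0.14. Rpl10, which joins the subunit late, and Rpl39, a small protein of the exit tunnel, were at the low end of the called genes with 0.47 ± 0.12 and 0.51 ± 0.15, and with totals alone both turn just below 0 (-0.045 and -0.0049). By edgeR Rpl39 was also not called without the filter on low counts (adjusted p = 0.0606), nor without mix replicate 2 (0.0595), PBS replicate 1 (0.0722) or PBS replicate 2 (0.0681). Rpl22 (chr4:152325742-152334071, plus strand) did not pass: it was at 110.2 and 113 CPM with PBS and 106 and 107 CPM with the mix, both mix libraries just below both PBS libraries (-0.071 ± 0.13, adjusted p = 0.7). All 3 stalk genes rose, Rplp2 by 0.98 ± 0.14, Rplp0 by 0.75 ± 0.11 and Rplp1 by 0.70 ± 0.13. Rplp0 was at 668 and 604 CPM with PBS and 1088 and 1052 CPM with the mix.

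The later times gave the same direction. At 4 h, in a single library, 75 of 76 genes were called higher and 0 lower (19.6% of all genes higher and 16.8% lower), with a median of 1.14 and a share of 2.63% of counts. This library is assumed to vary like the other groups. At 8 h 74 rose and 0 fell (15.6% of all genes higher and 12.9% lower), with a median of 0.90 and shares of 2.72 and 2.49%. Rpl22 was the gene not called at 4 h (0.31 ± 0.15), and Rpl22 (0.28 ± 0.13) and Rpl10 (0.24 ± 0.12) were the genes not called at 8 h. Rps6 stood at 299 CPM at 4 h and at 261 and 227 CPM at 8 h, and Rplp0 at 1349 CPM and 1347 and 1283 CPM. All 76 genes lay above both PBS libraries in the 4 h library and in both 8 h libraries. The same count was not made over all genes.

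Set directly against 2 h, the 8 h libraries differed in 5 of the 76 genes, a smaller share than among all genes. Rpl22 (0.35 ± 0.13), Rpl32 (0.34 ± 0.13) and Rplp0 (0.30 ± 0.11) were higher at 8 h (16.6% of all genes were), and Rpl10a (-0.60 ± 0.13) and Rps10 (-0.62 ± 0.18) were lower (18.7% of all genes). Rpl10a was at 187 and 165 CPM at 8 h, below both 2 h libraries and above both PBS libraries. With libraries scaled to their totals alone the split was 65 higher and 0 lower, as the median of all genes moved to 0.49. Leaving out any 1 of the 4 libraries left 2 or 3 genes called: 2 without 2 h replicate 1, 3 without 2 h replicate 2, and 2 without either 8 h replicate.

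The genes that build ribosomes followed another course. Of 45 ribosome biogenesis genes (processing of ribosomal RNA, snoRNA proteins and assembly factors) 43 rose at 2 h with a median log2 change of 2.52, 43 at 4 h (2.54) and 41 at 8 h (1.23). Between 2 h and 8 h 36 of them fell and 0 rose, with a median of -1.1, while the ribosomal protein genes had a median of 0.10. With totals alone 29 of the biogenesis genes fell and 4 rose, with a median of -0.63. Nop56, a core protein of box C/D snoRNPs, was at 60.2 and 56.4 CPM with PBS, 623 and 588 CPM at 2 h and 174 and 154 CPM at 8 h (-1.88 ± 0.13, adjusted p = 7.58e-10, 8 h against 2 h). Myc went from 61.4 and 44.5 CPM to 740.5 and 889 CPM and 221 and 181 CPM (-2.02 ± 0.18, adjusted p = 2.4e-08). Of 15 elongation factor and other TOP messages 14 rose at 2 h (median 0.80), close in size to the ribosomal protein genes. Eef1a1 and Tpt1, messages with well-known TOP tracts, changed by 0.66 ± 0.10 and 0.64 ± 0.15. Of 77 mitochondrial ribosomal protein genes 27 rose and 11 fell at 2 h, with a median of 0.24.

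The cytokines given singly asked which of them reaches these genes. With Il-1b 71 of 76 rose and 0 fell (19.4% of all genes rose and 13.7% fell), with a median of 0.71. With Osm 66 rose and 1 fell (18.9% and 15.5% of all genes), with a median of 0.60. With TNFa 4 rose and 0 fell (10.2% of all genes rose and 4.62% fell, so the family was below the background), and the median was 0.17. Those 4 were Rpl10a (0.59 ± 0.14), Rpl15 (0.48 ± 0.14), Rpl5 (0.46 ± 0.14) and Rpl3 (0.37 ± 0.12). With Il-17A edgeR called none of the 76 (4.95% of all genes), and the median was 0.14. DESeq2 called 5 of them higher, where it called 720 of all genes higher and 471 lower. By edgeR 19 of them had an unadjusted p under 0.05. That count is not given over all genes, so no response of the family to Il-17A is read from it. With totals alone 43 rose and 0 fell with Il-1b, and 36 rose and 1 fell with Osm, as the medians of all genes moved to -0.32 and -0.30. All these comparisons share the same 2 PBS libraries. Summed endothelial markers, 258 to 316 CPM with PBS, were at 115 to 149 CPM with Il-1b (Pecam1 and Cldn5 at 0), 106 to 110 CPM with Osm (Cdh5, Egfl7 and Cldn5 at 0), 181 to 211 CPM with TNFa and 173 to 244 CPM with Il-17A (Emcn at 0 in both). Their part in the result was not tested.

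Rpl10a shows the order over the single cytokines in each library. It was at 74.5 and 72.8 CPM with PBS, 81.2 and 89.8 CPM with Il-17A and 114 and 109 CPM with TNFa. It was at 221 and 206 CPM with Osm and 233 and 187 CPM with Il-1b. The Osm and Il-1b libraries overlapped each other and lay above both TNFa libraries, which in turn lay above all Il-17A and PBS libraries. Rps6 gave 115 and 119 CPM with TNFa, 97.9 and 130.3 CPM with Il-17A, 182 and 172 CPM with Osm and 212 and 185 CPM with Il-1b. For Rps6 the TNFa libraries lay within the range of the Il-17A libraries.

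The differences between cytokines were tested directly, in comparisons added after these results were seen. Against TNFa, Il-1b gave 61 genes higher and 0 lower (7.25% of all genes higher; median 0.53), and Osm gave 47 higher and 1 lower (9.97% of all genes higher; median 0.41). Against Il-17A in place of PBS, which frees the count from the PBS libraries, Il-1b gave 65 higher (15.8% of all genes), Osm 56 higher and 1 lower (15.1% higher), and TNFa 0 (5.06%). Leaving out 1 library moved the TNFa count against PBS to 2 without PBS replicate 1, 0 without PBS replicate 2 and 1 without either TNFa library.

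Paired with Osm, the other cytokines gave 73 genes higher for Il-1b (21.7% of all genes higher and 20.2% lower; median 0.87), 72 for TNFa (20.5% higher and 16.6% lower; median 0.79) and 64 for Il-17A (19.4% higher and 16.2% lower; median 0.65), all against PBS and with none lower. Rpl10a was at 293 and 288 CPM with Osm and Il-1b, 263 and 235 CPM with Osm and TNFa, and 250.2 and 223 CPM with Osm and Il-17A. Each of these libraries was above both libraries of Osm alone.

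With TNFa 40 of the 45 ribosome biogenesis genes rose (median 1.02), and with Il-17A 12 of 45 rose (median 0.51). Myc changed by 2.7 ± 0.19 with TNFa and 0.76 ± 0.18 with Il-17A, and Nop56 by 1.34 ± 0.13 and 0.50 ± 0.13, all of them called. Gas5, a snoRNA host gene that is itself a TOP message, changed by 0.95 ± 0.18, adjusted p = 0.000751 with TNFa and 0.63 ± 0.18, adjusted p = 0.0412 with Il-17A.

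**Figure D2:**
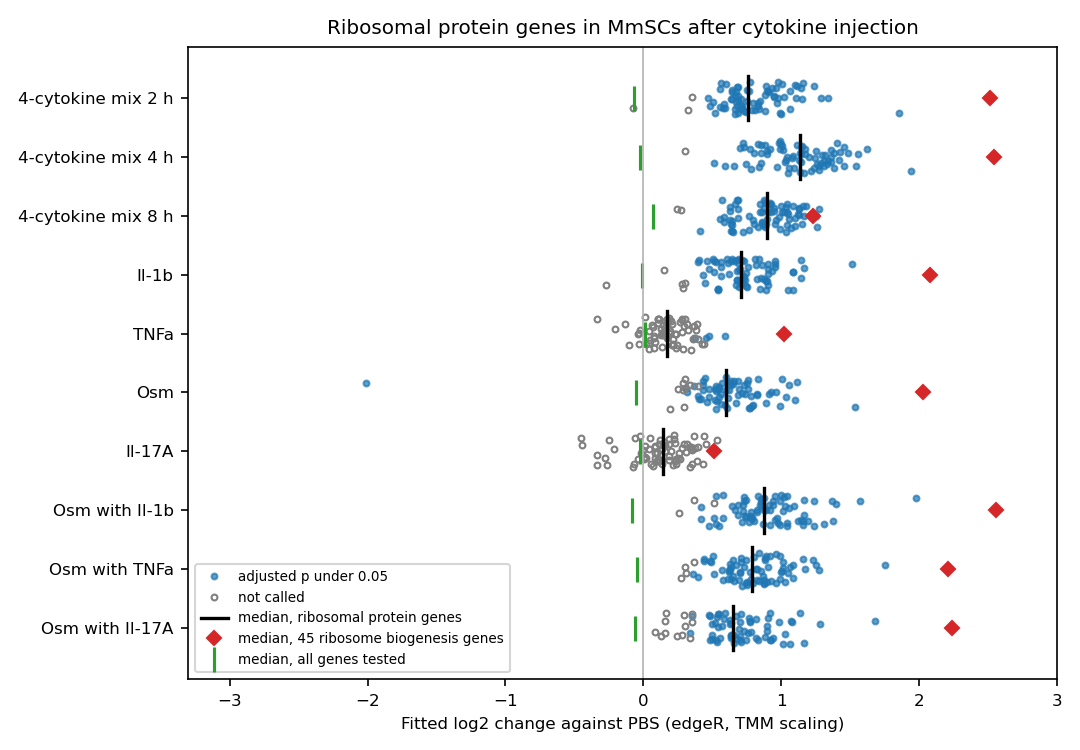
Fitted log2 change against PBS (x axis) of each of the 76 ribosomal protein genes in MmSCs for the 10 cytokine groups (y axis), filled where the adjusted p is under 0.05. Black bars are the family's median, green bars the median of all genes tested and red diamonds the median of 45 ribosome biogenesis genes. The family's medians lie between 0.60 and 1.14 in the mix, Il-1b, Osm and pair groups and at 0.17 and 0.14 with TNFa and Il-17A. The lone point at -2.01 with Osm is Rps2.

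Across the 10 comparisons with PBS 58 of the 76 genes were called higher in 8, the exceptions being TNFa and Il-17A. Rpl10a, Rpl15, Rpl3 and Rpl5 were called higher in 9. Rpl22 was called in none, although its levels reached 138 CPM in the 4 h library and 143 and 125 CPM with Osm and Il-1b against 110.2 and 113 CPM with PBS. Rps2 was called higher in 2, the mix at 4 h (634 CPM; 1.31 ± 0.37, adjusted p = 0.00844) and at 8 h (575 and 548 CPM; 1.13 ± 0.32, adjusted p = 0.00985). With Osm alone it went against the family, at 80.9 and 46.3 CPM, below both PBS libraries (-2.01 ± 0.33, adjusted p = 7.4e-05). Rps2 had the widest spread between replicates of the family, with a median SD of 0.302 on the log2 scale over 27 groups against 0.104 for the median gene, followed by Rpl24 with 0.199 and Rpl13a with 0.177. Rpl28 and Rps21 were called higher in 3 comparisons.

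The resting compartments were set side by side to ask where these messages are most abundant. The level differed among the 4 populations for all 76 genes (78.9% of all 16374 genes tested). For 70 of 76 genes the order of means was CD31+ cells, MmSCs, CD45+ cells and MuSCs, from low to high. MuSCs were above the mean of the other populations for 75 genes (25% of all genes, with 24.2% lower) with a median log2 difference of 1.00, and CD31+ cells below it for all 76 (19.4% of all genes, with 25.5% higher; median -1.01). CD45+ cells were higher for 47 genes and lower for 0 (29.4% of all genes higher and 25.8% lower; median 0.31), and MmSCs lower for 37 and higher for 0 (18% of all genes lower and 26.2% higher; median -0.26).

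Rpl10a followed the common order. It was at 60.3, 58.9 and 57.0 CPM in CD31+ cells, 144, 135 and 124 CPM in MmSCs, 144, 161 and 158 CPM in CD45+ cells and 322, 299 and 359 CPM in MuSCs. The MmSC libraries lay just under the CD45+ libraries, and both were clear of CD31+ cells and MuSCs. Its difference in MuSCs from the mean of the others, 1.61 ± 0.088, was the largest of the family, followed by Rps2 (1.56 ± 0.26) and Rpl12 (1.44 ± 0.11). In CD31+ cells Rpsa was lowest relative to the others (-1.95 ± 0.11), at 206, 185 and 203 CPM where MuSCs had 970.3, 1091 and 1150.1 CPM.

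Some genes departed from this order. Rps29 and Rps27, which encode zinc-binding proteins of the small subunit, had their highest mean in CD45+ cells. Rps29 was at 268, 310.1 and 224 CPM in CD45+ cells and at 154, 148 and 181 CPM in MuSCs, without overlap, and 148, 137 and 119 CPM in MmSCs. Its difference in CD45+ cells was 0.95 ± 0.12, adjusted p = 3.26e-07, and in MuSCs it did not pass (-0.028 ± 0.12, adjusted p = 0.905). Rps27 was at 541, 651 and 725 CPM in CD45+ cells and 527, 474 and 696 CPM in MuSCs, and these libraries overlapped. The counts for resting MmSCs depended on single libraries: leaving out 1 gave 29 to 68 genes called, with 67 without CD31+ replicate 1, 68 without CD45+ replicate 1 or 2, 67 without MmSC replicate 1 and 59 without MmSC replicate 2. With totals alone 74 were lower, as the median of all genes in that comparison moved to -0.43.

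One day after cardiotoxin the family's response differed by compartment. In MmSCs 74 of 76 genes rose and 0 fell (18.2% of all genes rose and 23.6% fell), with a median log2 change of 0.95. In CD31+ cells 73 rose and 0 fell (14.2% of all genes rose and 9.36% fell; median 0.90). In MuSCs 39 rose and 0 fell (21.4% of all genes rose and 17.4% fell; median 0.33), and with totals alone the split there was 18 higher and 5 lower, as the median of all genes moved to -0.24. In CD45+ cells 0 rose and 18 fell (18.6% of all genes fell and 15.9% rose; median -0.18, and -0.12 over all genes), a share of the family near the background, and without the filter on low counts 5 were called. A test of the difference in response among the 4 compartments passed for all 76 genes (36.2% of all genes). The change was largest in MmSCs for 47 genes, in CD31+ cells for 28 and in MuSCs for 1, and smallest in CD45+ cells for 75.

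In injured MmSCs Rps2 (1.97 ± 0.35), Rpl13a (1.58 ± 0.14), Rps18 (1.5 ± 0.12), Rpsa (1.40 ± 0.12) and Rpl27 (1.37 ± 0.12) changed most. Rpl13a, known also for a role in interferon-dependent translational silencing, was at 46.6, 45.1 and 38.9 CPM at rest and 136, 123 and 132 CPM after injury. Rplp0 was at 1599, 1544 and 1315 CPM and then at 2872, 2729.9 and 2941 CPM (0.94 ± 0.11, adjusted p = 3.16e-07). The injured libraries lay above the resting ones for both. Rps27, at 358, 323 and 305 CPM at rest and 349, 348 and 340.2 CPM after injury, did not pass (0.074 ± 0.15, adjusted p = 0.728), and neither did Rpl10 (0.23 ± 0.10, adjusted p = 0.0796). Of the 32 genes with at most 50% of shared stretches all 32 rose, and 42 of the other 44. Biogenesis genes had 43 of 45 higher (median 1.80) and mitochondrial ribosomal protein genes 66 of 77 (median 0.87). Between rest and injury the summed MmSC markers went from 48618 to 60157 CPM down to 17133 to 22360 CPM, myofibre markers from 177 to 349 CPM down to 3.79 to 16.1 CPM (none of either list at 0), and endothelial markers from 85.1 to 100.4 CPM (Cldn5 at 0) down to 13.7 to 20.3 CPM. Leukocyte markers were at 3.19 CPM or less at both times. The part of these markers in the result was not tested.

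In CD31+ cells Rps2 showed the largest change, from 109, 251 and 245 CPM to 1312, 1204 and 1082 CPM (2.58 ± 0.36, adjusted p = 1.22e-05). Rpsa was at 206, 185 and 203 CPM at rest and 752, 799 and 608 CPM after injury (1.86 ± 0.13, adjusted p = 5.77e-10), and Rpl12 (1.82 ± 0.15), Rpl10a (1.55 ± 0.12) and Rps18 (1.36 ± 0.12) came next. Rps14, Rps21 and Rps27 were not called. Erythroid markers were at 7.80 to 457 CPM in the resting and 77.6 to 965 CPM in the injured CD31+ libraries, and pericyte and smooth muscle markers at 558 to 843 and 302 to 490 CPM. Leukocyte markers were at 5.89 to 12.8 CPM at rest and at 282.6, 29.5 and 12.96 CPM in injured replicates 1, 2 and 3, and replicate 1 also had the highest share of ribosomal protein counts among them (3.87%). Without that library 67 of the 76 genes were called. None of these 3 lists had a gene at 0. Their part in the result was not tested.

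In MuSCs, which held the most ribosomal protein message at rest, the called changes were led by Rpl41 (1.15 ± 0.12), the shortest protein of the family, Rpl27 (1.01 ± 0.12), Rpl13a (0.91 ± 0.13) and Rpl29 (0.86 ± 0.13). Rpl41 was at 540.4, 542 and 649 CPM at rest and 1267, 1277 and 1287 CPM after injury. Rpl22 was at 482, 441 and 524 CPM at rest and 387, 441 and 413 CPM after injury and did not pass (-0.22 ± 0.12, adjusted p = 0.143). Its injured and resting libraries overlapped. Biogenesis genes rose for 41 of 45 (median 1.35). Summed MmSC markers in MuSC libraries were 1890 to 2097 CPM at rest and 703 to 1103 CPM after injury. Pericyte and smooth muscle markers were at 1451 to 2577 CPM and 534 to 1079 CPM. Myofibre markers were at 606 to 674 CPM and 224 to 274 CPM. MuSC markers were at 9035 to 10155 CPM and 7069 to 8152 CPM. The part of these markers in the result was not tested.

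In CD45+ cells the 18 genes that fell included Rps27 (-0.82 ± 0.15), Rps24 (-0.67 ± 0.13), Rps15 (-0.61 ± 0.12) and Rps4x (-0.59 ± 0.13). Rps27 was at 541, 651 and 725 CPM at rest and 316, 369.5 and 403 CPM after injury, with no overlap. Rplp1 was at 871, 997 and 907 CPM and 638, 681 and 773 CPM (-0.41 ± 0.11, adjusted p = 0.00729), whereas Rplp0 was at 1556, 1649 and 1735 CPM at rest and 1575, 1684 and 1677 CPM after injury, within the same range (-0.0012 ± 0.11, adjusted p = 1). The ribosome biogenesis list went the other way, with 27 of 45 higher and 0 lower (median 0.51). Summed over 6 genes, neutrophil markers were at 1117 to 3784 CPM in the resting and 6012 to 8804 CPM in the injured CD45+ libraries, none of the 6 at 0, and the 8 general leukocyte markers at 21250 to 22651 and 12814 to 14065 CPM. Their part in the result was not tested. The count was 7 without resting replicate 2, 9 without injured replicate 1, 10 without injured replicate 2, and 53 with totals alone, as the median of all genes moved to -0.35.

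**Figure D3:**
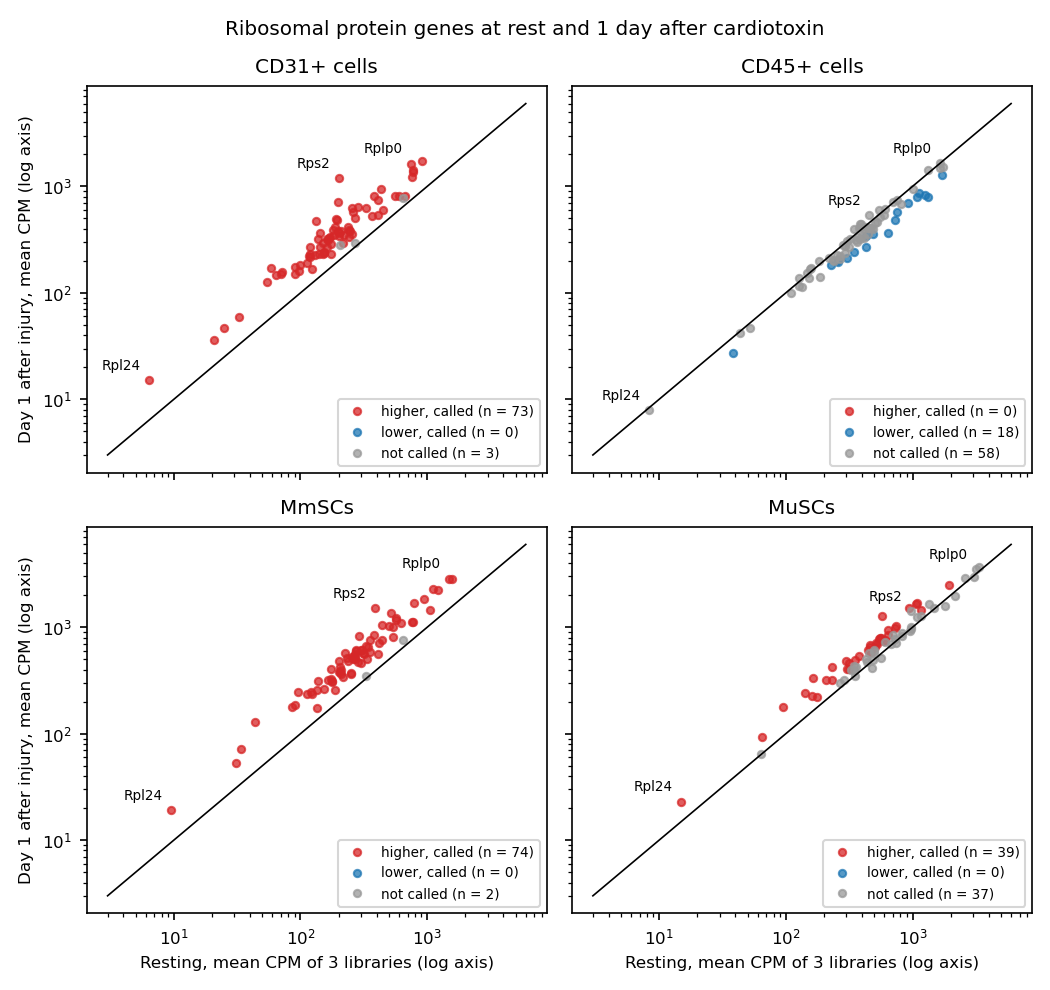
Mean CPM of each ribosomal protein gene at rest (x axis) and 1 day after cardiotoxin (y axis) in CD31+ cells, CD45+ cells, MmSCs and MuSCs, 3 libraries per mean, on log axes with the line of equality. Red points were called higher and blue points lower at an adjusted p under 0.05, and grey points were not called. Points lie above the line in CD31+ cells and MmSCs, along or below it in CD45+ cells, and mostly above it but nearer to it in MuSCs.

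The reporter experiment compared MmSCs marked for Il6 expression with unmarked ones 12 h after cardiotoxin. Il6 itself, which the sort follows, had 77.37, 53.61 and 258.9 CPM of total counts in Thy1.1+ libraries 1, 2 and 3 and 48.09, 22.73 and 61.57 CPM in the Thy1.1- libraries, so the groups overlapped while each pair had the order of the labels. In the unpaired test none of the 76 genes passed (0% of all 11975 genes by edgeR), and the median log2 difference was 0.34. DESeq2 also called 0 of them, where it called 45 of all genes higher and 127 lower. By edgeR 16 of them had an unadjusted p under 0.05, a count not given over all genes. Libraries with the same replicate number deviated together (r 0.358, 0.392 and 0.618), against at most 0.264 between different numbers. Number 3 lay far from numbers 1 and 2 in both groups. A shared mouse and a shared batch therefore cannot be told apart, and libraries of one number are called a pair only by that number. With the replicate number as a block 39 of 76 genes were higher in Thy1.1+ cells and 0 lower, where 4.94% of all genes were higher. Leaving out both libraries of number 1, 2 or 3 changed this count to 2, 0 and 56 (2.05, 2.11 and 5.45% of all genes were higher), in a check added after the result was seen, while the median difference stayed at 0.34, 0.29 and 0.38 against 0.33 with all 3 numbers. Summed MmSC markers were at 27137 to 43225 CPM in Thy1.1- and 19033 to 32902 CPM in Thy1.1+ libraries, and their part in the result was not tested. Within pairs, 75, 76 and 74 of the 76 genes were higher in the Thy1.1+ library, with medians of 0.317, 0.43 and 0.234 on the log2 scale. In all 3 pairs 73 genes were higher. These within-pair counts were not made over all genes, and the genes within a library are not independent.

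Rplp0 was at 1585, 1581 and 1403 CPM in Thy1.1- libraries 1, 2 and 3 and at 2112, 2159 and 1675 CPM in the Thy1.1+ libraries in the same order. All Thy1.1+ libraries lay above all Thy1.1- libraries, and the log2 differences within pairs were 0.41, 0.45 and 0.26. Rps6 was at 298, 310.2 and 277 CPM in Thy1.1- and 369, 417 and 338 CPM in Thy1.1+ libraries. Rpl3 was at 919, 881 and 755 CPM in Thy1.1- and 1070.2, 1130.5 and 905 CPM in Thy1.1+ libraries. Rps2 was the gene that was lower in pair 1, at 159, 132 and 133 CPM in Thy1.1- and 101, 152 and 146 CPM in Thy1.1+ libraries (-0.65, 0.20 and 0.13 within pairs). The library share held by the family was 3.41, 3.11 and 2.43% in Thy1.1- and 4.00, 4.12 and 2.78% in Thy1.1+, lowest in number 3 of either group.

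**Figure D4:**
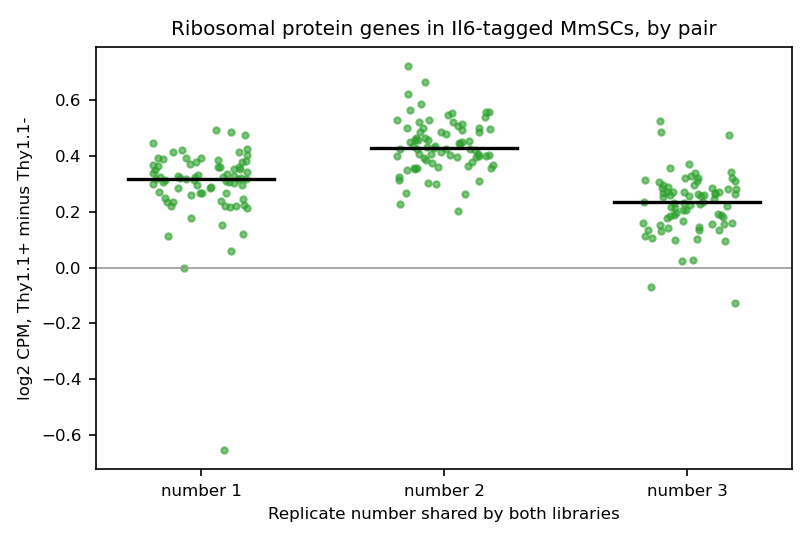
Difference in log2 CPM between the Thy1.1+ and Thy1.1- library of each replicate number (x axis) for each of the 76 ribosomal protein genes (points), with the median as a bar. The medians are 0.317, 0.43 and 0.234, and the lowest point of pair 1 is Rps2 at -0.654.

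In whole muscle 7 days after injury the comparison asked what blocking Cxcl5, a neutrophil chemoattractant, leaves behind. None of the 76 genes passed (0.03% of all 13346 genes, 4 genes in all; edgeR), with 0 at an unadjusted p under 0.05 and 0 by DESeq2, and the median log2 difference was -0.18. The family's share was 1.11, 1.1 and 1.12% with IgG and 1.25, 0.745 and 1.30% with anti-Cxcl5, replicate 2 being the low library. Neutrophil markers, summed over 6 genes, were at 16.2, 116.5 and 19.2 CPM in anti-Cxcl5 replicates 1, 2 and 3 and at 9.75 to 18.9 CPM with IgG (Cxcr2 at 0), so the same library stood apart there too, and the part of this in the result was not tested. Without that library the count was again 0 and the median 0.12. At IgG Rplp0 was at 764, 749 and 745 CPM and at 762, 829.9 and 759.6 CPM with anti-Cxcl5, so the low library was low in some genes and not in others.

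In that library 49 of the 76 genes lay more than 1 log2 unit under the mean of the other 2 anti-Cxcl5 libraries. Rpl38 was lower by 3.37 on the log2 scale, Rps28 by 3.35, and Rps27 and Rpl39 each by 3.12. Rps29 was at 40.5, 5.63 and 38.2 CPM and Rpl41 at 250.1, 34.5 and 235 CPM in replicates 1, 2 and 3. Rplp0, Rpl4 and Rpl13a were instead slightly above the others, by 0.126, 0.193 and 0.361. The deviation went with transcript length: Spearman's rho was 0.61 across the 76 genes, which are not independent, and the 22 genes under 600 bases had a median of -1.93 against -0.62 for the 22 of 1000 bases or more. In the 42 libraries of other groups of 3 this rho ran from -0.47 to 0.51. The sign of the family's median in whole muscle thus turned on 1 library, and the cause of its deviation was not tested.

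**Figure D5:**
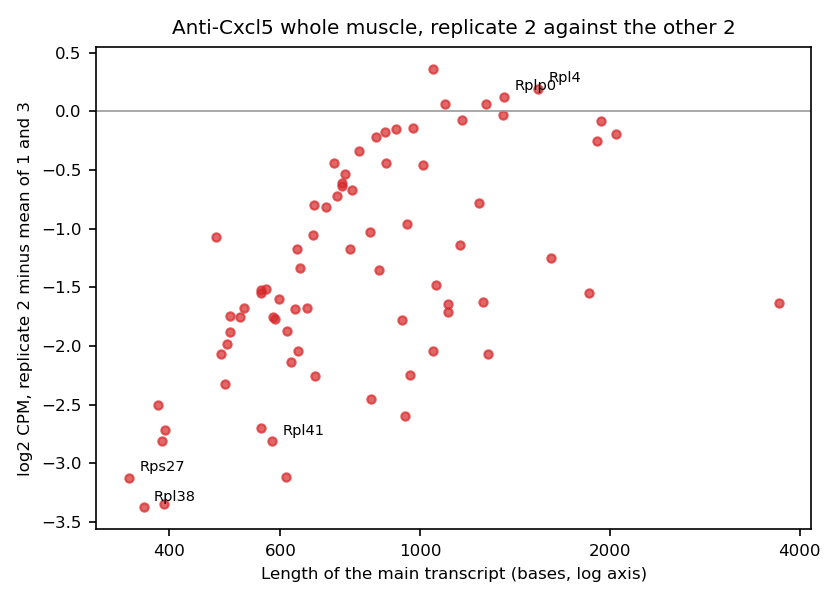
Deviation of the replicate 2 anti-Cxcl5 whole muscle library from the mean of the group's other 2 libraries (y axis, log2 CPM) against the length of each gene's main transcript (x axis, bases, log axis), with 1 point per ribosomal protein gene. Genes with transcripts under 600 bases lie lowest, down to -3.37 for Rpl38, and Rplp0 and Rpl4 lie near 0.

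MmSCs of mdx mice were followed over 3 ages of dystrophy. From 2.5 to 7 weeks 20 of 76 genes rose and 0 fell (21.9% of all 13160 genes rose and 22.7% fell), so the share called was near the background, and the median log2 change was 0.18. Rpl13a (0.91 ± 0.14), Rps2 (0.70 ± 0.19), Rpl41 (0.56 ± 0.11), Rpsa (0.55 ± 0.11) and Rplp1 (0.54 ± 0.11) led these. Rpl13a was at 28.7, 22.8 and 27.5 CPM at 2.5 weeks, 48.9, 51.0 and 48.7 CPM at 7 weeks and 33.1 and 36.0 CPM at 12.5 weeks. Rplp1 was at 573, 631 and 621 CPM, 931, 905 and 826 CPM and 706 and 650.4 CPM at the same ages. For both, the 7 week libraries lay above all others. Mitochondrial ribosomal protein genes rose more widely over this interval, with 52 of 77 higher (median 0.69).

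From 7 to 12.5 weeks 0 rose and 5 fell (2.39% of all genes fell and 3.52% rose), with a median of -0.30. The 5 were Rpl41 (-0.71 ± 0.12), Rpl31 (-0.70 ± 0.14), Rps26 (-0.56 ± 0.14), Rps20 (-0.49 ± 0.14) and Rpl28 (-0.45 ± 0.12). Rpl41 was at 588, 551 and 511 CPM at 7 weeks and 352 and 321 CPM at 12.5 weeks, against 386, 372 and 365 CPM at 2.5 weeks. For 54 of the 76 genes both 12.5 week libraries were below all 7 week libraries. This count was not made over all genes, so no fall of the family is read from it. From 2.5 to 12.5 weeks 1 rose and 2 fell (13.9% and 12.4% of all genes): Rpl10a was higher (0.36 ± 0.12) and Rps14 (-0.39 ± 0.14) and Rps27 (-0.48 ± 0.14) were lower. With totals alone 0 rose and 12 fell. Myc changed by -0.93 ± 0.12 from 2.5 to 7 weeks and by 0.77 ± 0.13 from 7 to 12.5 weeks. Over the whole interval biogenesis genes had 21 of 45 higher and 2 lower.

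These mdx counts rest on few libraries. From 2.5 to 7 weeks the count was 11 without 2.5 week replicate 1, 10 without 7 week replicate 1 and 10 without 7 week replicate 2. From 7 to 12.5 weeks it was 1 without 7 week replicate 1, 2 without 7 week replicate 2, 2 without 12.5 week replicate 1 and 0 without 12.5 week replicate 2. From 2.5 to 12.5 weeks it was 13 without 2.5 week replicate 2, 1 without 2.5 week replicate 1 or 3, and 0 without either 12.5 week library. Summed endothelial markers in these libraries were 381 to 443 CPM at 2.5 weeks, 53.5 to 61.2 CPM at 7 weeks and 74.2 to 102 CPM at 12.5 weeks (Emcn at 0 at 2.5 weeks). MuSC markers were at 101 to 111 CPM (Pax7 and Myod1 at 0), 576 to 622 CPM (Myf5 at 0) and 411 to 507 CPM (Pax7 and Myf5 at 0) at these ages, and pericyte and smooth muscle markers at 28.6 to 57.8, 86.6 to 162 and 53.9 to 79.0 CPM, with none of these at 0. The part of these markers in the result was not tested.

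Loss of Il1b was set against wild type in injured MmSCs to ask what Il-1b adds there. Il1b had 0, 0 and 1 counts in the Il1b-KO libraries and 2 and 5 in Il1b-WT, too few in these cells to check the labels. One of 76 genes passed, Rps2, which was higher in Il1b-KO (1.12% of all 12102 genes were higher and 0.0909% lower, so the share called was near the background; 1.63 ± 0.20, adjusted p = 0.00827). It was at 88.2 and 54.7 CPM in Il1b-WT and 185, 263 and 214 CPM in Il1b-KO, without overlap. It was not called without Il1b-KO replicate 2 or without replicate 3. The median of the 76 genes was -0.098. No decrease passed. All Il1b-KO libraries lay below both Il1b-WT libraries for 42 of the 76 genes and above them for 2. The same count was not made over all genes, so no fall of the family is read from it. The family's share was 2.75 and 2.69% in Il1b-WT and 2.50, 2.62 and 2.61% in Il1b-KO, lower in each Il1b-KO library. Rps6 was at 295 and 272 CPM in Il1b-WT and 270.4, 262 and 287 CPM in Il1b-KO. Rplp0 was at 679.9 and 665 CPM in Il1b-WT and 628, 675 and 666 CPM in Il1b-KO, and both genes had overlapping ranges. Rps29 was at 76.1 and 83.4 CPM in Il1b-WT and 63.4, 61.6 and 69.0 CPM in Il1b-KO, lower in each knockout library, and did not pass (-0.30 ± 0.11, adjusted p = 0.276).

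Genes that sit beside this set give it context. Rps3a1, Rack1 and Fau also rose with the mix (0.87 ± 0.12, 1.12 ± 0.13 and 0.73 ± 0.13 at 2 h, all called). Rpl7l1, a relative of Rpl7, was at 61.3 and 54.9 CPM with PBS, 226 and 236 CPM at 2 h and 110.0 and 99.3 CPM at 8 h. Its change at 2 h was 1.99 ± 0.14, adjusted p = 3.38e-10, and between 2 h and 8 h it fell (-1.14 ± 0.13). It was also called with TNFa (0.80 ± 0.14) and with Il-17A (0.66 ± 0.14), and it rose in all 4 injured compartments.

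Rpl22l1, the paralogue of Rpl22, rose at 2 h by 1.09 ± 0.18, adjusted p = 6.61e-05 where Rpl22 was not called, and it rose in mdx MmSCs from 2.5 to 7 weeks (0.87 ± 0.15) and fell from 7 to 12.5 weeks (-0.78 ± 0.18). It was at 29.7 and 25.6 CPM with PBS and 59.5 and 58.5 CPM with the mix. Rps27l, a p53 target related to Rps27, rose in injured CD31+ cells, CD45+ cells, MmSCs and MuSCs (1.5 ± 0.15, 1.06 ± 0.15, 1.36 ± 0.15 and 1.48 ± 0.15), and a difference between the compartments did not pass (adjusted p = 0.239). In MmSCs it was at 101, 85.6 and 102 CPM at rest and 252, 247 and 244 CPM after injury, while Rps27 was not called there. Rpl3l, a muscle fibre gene, was at 419, 381 and 265 CPM in whole muscle with IgG, where its relative Rpl3 was at 155, 168 and 185 CPM. Rps4l ran against the family at rest, higher in CD31+ cells (1.58 ± 0.15) and MmSCs (1.44 ± 0.15) and lower in MuSCs (-2.30 ± 0.20) than in the mean of the others.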

How the data were processed

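RNA-seq libraries of sorted cells and of whole muscle were analysed from a table of counts per gene symbol that the authors deposited. Reads were aligned with STAR 2.7.3a to mm10 (GRCm38) and counted with featureCounts, per the submitters' processing notes. The annotation, strand setting and treatment of reads with several matches were not stated in these sources. The members and gene lists were chosen with earlier results of these data known. Any member could be named, with at most 5 highest and 5 lowest called per comparison. The counts were taken as deposited. Each of the 6 experiments was fitted apart with edgeR 4.0.16 in R 4.3.3 (genes kept by filterByExpr with a minimum count of 10, TMM, quasi-likelihood F-test, Benjamini-Hochberg over all genes tested), with calls at adjusted p below 0.05. Errors are standard errors of the log2 change. DESeq2 1.42.0, other scalings, no filter, a replicate block and leaving out libraries were the alternatives. Totals ran from 2252373 to 8408842 counts, and the biological coefficient of variation from 12 to 29.6%. Same-numbered reporter libraries deviated together (r 0.358, 0.392 and 0.618, from the data and the shared numbers in the titles). Between different numbers r reached 0.264. Number 3 stood apart in both groups (chi-square per degree of freedom 29.3 to 48.93, against 7.597 and 8.733 between numbers 1 and 2). These r therefore cannot tell a shared mouse from a shared batch. No 2 libraries of a group were alike within sampling noise (chi-square per degree of freedom at least 3.944). The fit was tested on simulated counts: for the mix at 2 h it recovered 14.9, 55.2 and 97% of genes changed 1.5-, 2- and 4-fold among 14900 genes. There 67, 67 and 66 genes were changed, far fewer than were called in the data. Recovery was 1.49, 10.4 and 78.8% for the unpaired reporter test and 4.48, 56.7 and 92.4% for anti-Cxcl5. At 1.5-fold it was 13.4% for injury in MmSCs, 19.4% for mdx at 7 against 2.5 weeks and 32.8% for Il1b-KO. In all the comparisons simulated a 1.5-fold change would thus mostly go uncalled. Transcript lengths and shared stretches came from GENCODE vM21 on GRCm38, and start sequences from RefSeq. Values of some single genes are not reported here, though these genes stay in the counts and medians.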

Additional observations from a re-analysis of the deposited data

Results flagged for a closer look

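For all 76 ribosomal protein genes the response to injury differed among CD31+ cells, CD45+ cells, MmSCs and MuSCs by a test of the difference itself (edgeR's interaction F-test, adjusted p under 0.05), where 36.2% of all genes tested did. The medians of the log2 change were 0.90, -0.18, 0.95 and 0.33 in that order.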

How the results depend on the processing

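Scaling to total counts without TMM moved the number of ribosomal protein genes called to 28 for the mix at 2 h, 43 for Il-1b, 1 for TNFa, 37 for Osm, 42 for Osm with Il-17A, 65 for the mix at 8 h against 2 h, 53 for injury in CD45+ cells, 23 for injury in MuSCs, 74 for resting MmSCs, and 10, 15 and 12 for mdx at 7 against 2.5, 12.5 against 7 and 12.5 against 2.5 weeks. Without the filter on low counts the number was 1 for TNFa, 2 for the mix at 8 h against 2 h, 5 for injury in CD45+ cells, 1 for anti-Cxcl5, and 8 and 1 for mdx at 12.5 against 7 and 2.5 weeks. DESeq2's size factors gave 2 for Il-17A and 2 for the mix at 8 h against 2 h, and scaling without these genes gave 1 for Il-17A. DESeq2's own test gave 5 for Il-17A and 9 for mdx at 12.5 against 7 weeks. With Il-17A as the reference TNFa gave 0. Why the counts moved under these settings was not examined further, so the cause was not tested. The replicate block gave 39 for the reporter (2 and 56 without number 1 or 3, 0 without number 2), 2 for Il-17A and 1 for mdx at 12.5 against 2.5 weeks. It moved no other count by over 1.5 times. Outside the reporter, same-numbered libraries did not deviate together (r from -0.0995 to 0.139). This cannot show whether they share a mouse, since libraries of different cells from 1 mouse need not deviate alike.

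Leaving out 1 library in turn gave 70 to 73 genes for the mix at 2 h, 73 to 74 at 4 h, 67 to 74 at 8 h and 2 to 3 for 8 h against 2 h. It gave 59 to 68 for Il-1b, 0 to 2 for TNFa, 48 to 67 for Osm, 0 for Il-17A, and 69 to 73, 62 to 74 and 55 to 62 for Osm with Il-1b, TNFa and Il-17A. Injury gave 67 to 75 in CD31+ cells, 7 to 19 in CD45+ cells, 72 to 75 in MmSCs and 27 to 45 in MuSCs, and 74 to 76 for the difference among them. Resting populations gave 76 for any difference, 75 to 76 for CD31+ cells, 37 to 59 for CD45+ cells, 29 to 68 for MmSCs and 75 for MuSCs. The reporter and anti-Cxcl5 comparisons gave 0, mdx 10 to 26, 0 to 4 and 0 to 13, and Il1b-KO 0 to 1. With mitochondrial genes left out of the total, the family's share was 2.642% in the 4 h library and 1.153% with IgG. Library depth was not varied, so its part in these counts was not tested. Of single genes that changed sign, Rpl10 and Rpl39 were called in the main analysis and the others were not, and Rpl39 was also not called without the filter (adjusted p = 0.0606 by edgeR) and in 3 of 4 analyses that left out 1 library (0.0595 to 0.0722). At total-count scaling, the mix at 2 h gave -0.0448 for Rpl10, -0.00486 for Rpl39, -0.185 for Rps2 and -0.164 for Rps21, and resting MuSCs gave 0.384 for Rps29. Rplp0 in injured CD45+ cells gave 0.00495 with scaling without these genes and 0.119 without the filter, and Rps27 in injured MmSCs -0.0152 with DESeq2's size factors and -0.0154 with its test. Leaving out 1 library put Rps2 for the mix at 2 h between -0.454 and 0.831, Rplp0 in injured CD45+ cells between 0.0133 and 0.0768 and Rps29 in resting MuSCs between -0.122 and 0.126.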
